A study of Caenorhabditis elegans with 2 samples.

Results

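The tbx-2 gene, the genes on either side of it, sax-2 and Y54H5A.2, and the separate gene unc-119 were examined for binding of tagged TBX-2 in Caenorhabditis elegans. They are 4 of 19973 protein-coding genes on the 6 nuclear chromosomes. The genes were chosen by the measured values themselves, because tbx-2 lies in a dense cluster of peaks, and by the genotype of the strain, which names unc-119. Their peak counts and signals are therefore descriptions, with no test. For each gene, every listed region was taken whose summit, the position of its highest signal, lay in the gene or within 5 kb of it. This gave 21 of the 4384 summits in the list that passed an irreproducible discovery rate (IDR) step, a measure of how alike regions rank in replicates. It also gave 55 of the 30000 regions listed for replicate 1 and 53 of the 30000 listed for replicate 2. The list made from both replicates pooled gave 56 of 30000.

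The data are chromatin immunoprecipitation with sequencing (ChIP-seq) from whole hermaphrodites at the L1 larval stage, 6 h after worms starved following bleaching were synchronized. All animals were of strain OP159, genotype unc-119(ed3) III; wgIs159, in which a stable transgene gives TBX-2 with GFP and FLAG at its C-terminus, and the antibody was against GFP. There is 1 group with 2 biological replicates and no comparison strain, so the design has no contrast between conditions. Both replicates carry the transgene and the unc-119 allele. The stretch of DNA in wgIs159, its copy number and its site of insertion are not given in the sources used here. Extra copies of tbx-2 DNA and binding at the native gene cannot be told apart at tbx-2 and its neighbours. Whole animals were used, so fewer cells with a bound site and less binding per cell cannot be told apart either. Peak lists hold no expression values, so the labelled stage and tissue could not be checked against marker genes.

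T-box factors bind DNA through a conserved domain and recognise sites built around the core GTGTGA. TBX-2 is the T-box factor that C. elegans needs to make the muscles of the anterior pharynx, the feeding organ. Many transcription factors bind near their own gene, and ChIP-seq on a tagged copy is often used to look for this. The sax-2 gene encodes a large Furry-family protein that limits neurite growth. The unc-119 gene encodes a chaperone for lipid-modified proteins that the nervous system needs. Mutants of unc-119 are a common host for making transgenic worms, because a working copy brought in with the transgene restores movement. The labels do not say whether wgIs159 carries such a copy.

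The sequences under the summits that matter most are given first. All are the plus strand of ce11 (WBcel235), from the RefSeq genome of that assembly, and none overlaps an exon. In the first set of lines the capitals mark the 11 bases centred on the summit. The line for sax-2 holds the strongest summit near tbx-2, and the next line the summit at the tbx-2 start. The following lines hold both summits inside tbx-2, the strongest summit inside Y54H5A.2 and both summits in unc-119.
sax-2 intron 31, chrIII:5129280-5129430: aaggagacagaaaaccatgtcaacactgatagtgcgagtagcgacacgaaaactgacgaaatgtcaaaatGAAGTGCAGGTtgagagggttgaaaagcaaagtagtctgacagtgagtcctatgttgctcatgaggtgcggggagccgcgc
tbx-2 promoter, chrIII:5136323-5136473: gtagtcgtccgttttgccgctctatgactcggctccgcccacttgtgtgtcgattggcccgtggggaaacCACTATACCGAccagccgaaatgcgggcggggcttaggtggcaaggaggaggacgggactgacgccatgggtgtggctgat
tbx-2 intron 1, chrIII:5134607-5134757: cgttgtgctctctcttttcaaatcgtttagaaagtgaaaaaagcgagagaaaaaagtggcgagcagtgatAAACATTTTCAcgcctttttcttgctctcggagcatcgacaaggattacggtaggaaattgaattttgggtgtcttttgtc
tbx-2 intron 3, chrIII:5133349-5133499: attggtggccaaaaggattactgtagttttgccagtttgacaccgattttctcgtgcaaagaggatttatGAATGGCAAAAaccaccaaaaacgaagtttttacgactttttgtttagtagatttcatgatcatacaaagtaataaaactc
Y54H5A.2 intron 5, chrIII:5142078-5142228: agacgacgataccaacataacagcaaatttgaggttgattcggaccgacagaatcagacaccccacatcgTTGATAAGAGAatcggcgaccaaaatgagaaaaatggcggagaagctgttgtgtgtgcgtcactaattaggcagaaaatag
unc-119 intron 1, stronger summit, chrIII:10905233-10905383: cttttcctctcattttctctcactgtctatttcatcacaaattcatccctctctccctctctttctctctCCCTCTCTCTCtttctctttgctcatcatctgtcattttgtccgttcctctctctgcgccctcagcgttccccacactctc
unc-119 intron 1, weaker summit, chrIII:10903305-10903455: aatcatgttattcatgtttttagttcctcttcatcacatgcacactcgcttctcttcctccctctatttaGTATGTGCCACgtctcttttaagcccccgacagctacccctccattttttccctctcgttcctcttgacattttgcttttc

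The next lines show the only windows of 101 bp around the 21 summits that held the T-box core within 50 bp of the summit. The capitals mark GTGTGA or its reverse complement TCACAC.
sax-2 intron 25, chrIII:5120771-5120871: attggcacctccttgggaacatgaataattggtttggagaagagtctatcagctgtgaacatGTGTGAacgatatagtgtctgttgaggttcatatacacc
sax-2 intron 30, chrIII:5127136-5127236: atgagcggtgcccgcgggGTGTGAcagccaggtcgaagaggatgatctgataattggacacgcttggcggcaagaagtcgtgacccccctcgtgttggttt
Y54H5A.2 intron 5, chrIII:5140626-5140726: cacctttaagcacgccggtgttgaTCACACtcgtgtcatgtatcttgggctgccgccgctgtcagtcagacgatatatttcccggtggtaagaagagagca

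The tbx-2 gene (WBGene00006543) lies on the minus strand of chromosome III at 5130923 to 5136296, and its single transcript has 4 introns. Its window held 12 IDR summits. A background is needed to read this count: 40.5% of the 19973 genes had at least 1 IDR summit in their window, and the mean was 0.611. No gene had more than 12. Only 0.0300% of the genes, 6 of them, had 9 or more, and tbx-2, Y54H5A.2 and sax-2 are 3 of these 6. The others were T28B11.1 with 11, ppfr-1 with 10 and scd-1 with 9. The windows of tbx-2, Y54H5A.2 and sax-2 overlap, so these genes share summits. Of the 19 summits in their joint window, 12 were counted for more than 1 of the 3 genes. A region can also hold more than 1 summit. The 19 summits lay in 17 distinct regions, and the 4384 of the whole list in 4345. The regions with more than 1 summit, 5129040 to 5129754 and 5140492 to 5141001, both lay in the tbx-2 window and raised its count. Replicate 1 had 26 regions in the tbx-2 window and replicate 2 had 27, against a median of 3 per gene in each list. By these counts tbx-2 ranked 19 in replicate 1 and 18 in replicate 2, where the highest counts were 38 and 41. Per kb of window, tbx-2 ranked 1 of all genes by IDR summits (0.781 per kb) and by replicate regions (1.72 per kb).

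The summit at the tbx-2 start lay at 5136398, 102 bp upstream of the annotated start, in a region from 5136146 to 5136631. It had a signal of 391 in replicate 1, of 519 in replicate 2, and of 925 in the pooled data, where it ranked 54. Signal is the strength that the authors' peak caller gave a region, on a scale that is not stated. This promoter sequence, shown above, was the most GC-rich of the 19, with 64.4% G or C over 101 bp, where all IDR summits had a median of 46.5%. A weaker summit followed at 5137198, 902 bp upstream of the start, with a signal of 53.4 in replicate 2. Replicate 1 listed no summit within 100 bp of it. A region of replicate 1 lay 109 bp away, at 5137089, with a signal of 44.9. This was the only IDR summit of the 19 not matched in both replicates.

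Inside tbx-2 only 2 IDR summits were found, both in introns. The summit at 5134682 lies in intron 1, the longest of the 4 (1899 bp), and had signals of 121 in replicate 1 and 131 in replicate 2. The summit at 5133424 lies in intron 3 (794 bp), the next longest, with 86.2 in replicate 1 and 116 in replicate 2. Both were weaker than the promoter summit in each replicate. With weaker regions included, 9 summits lay inside the gene in each replicate. Most of what was counted for tbx-2 lay outside its own transcribed span, toward both neighbours. The gene takes up 5374 bp of its window of 15.374 kb, so most of the window lies outside it as well.

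The strongest summit in the window of tbx-2 belongs to its neighbour in sequence. It lies at 5129355, in intron 31 of the 32 introns of sax-2 and 1568 bp beyond the 3′ end of tbx-2. Replicate 1 gave it a signal of 586, rank 3 of 30000 regions, and replicate 2 gave 792, rank 14. The genes tbx-2 and sax-2 point toward each other, and their 3′ ends are 246 bp apart. The same region, 5129040 to 5129754, holds another summit at 5129569 with signals of 169 and 276 in replicates 1 and 2. At 715 bp this region is the widest of the 3 genes, where the median was 400 bp.

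The sax-2 gene (WBGene00004728, plus strand, 5109701 to 5130676) had 9 IDR summits in its window, and 23 regions in replicate 1 and 24 in replicate 2. It is long, so its density of 0.291 IDR summits per kb ranked 164. Inside the gene lay 6 IDR summits, and all 6 fell in its 3 longest introns, numbers 25, 30 and 31. These 3 introns make up 54.6% of the intron sequence and 31.7% of the gene, and the other 29 introns held none. The 4 summits of introns 30 and 31 lie near the 3′ end of the long transcript, the end that faces tbx-2, and the 2 of intron 25 lie in the middle of the gene.

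Intron 25 of the long sax-2 transcript also holds the region before the start of the short one. The strong summit at 5120821 lies 1190 bp upstream of that start, with a signal of 232 in replicate 1 and 382 in replicate 2. The summit at 5121817 lies 194 bp upstream of it, with 63.3 and 85.9. At the start of the long transcript, the summit at 5108987 lies 714 bp upstream, with 69.1 in replicate 1 and 121 in replicate 2. Both sax-2 starts thus had an IDR summit in their promoters, taken as 1000 bp upstream to 200 bp downstream, and each was weaker than the summit at 5136398 in both replicates.

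Intron 30 of sax-2 holds a strong and a weak summit. The strong summit, at 5125965, had 166 in replicate 1 and 308 in replicate 2. The weak one, at 5127186, had 74.8 in replicate 2 but its nearest match in replicate 1 had 12.7, a ratio of 5.91. A stronger region of replicate 1, with a signal of 46.8, lay 125 bp away at 5127061. Against that region, the strongest of replicate 1 within 200 bp, the ratio was 1.6. The median over all IDR summits was 1.61, but with the nearest summit within 100 bp. The cause of the high ratio was not tested.

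Y54H5A.2 (WBGene00021900, minus strand, 5137358 to 5149578) lies upstream of tbx-2, and its 3′ end is 1061 bp from the tbx-2 start. Its window held 12 IDR summits, as many as that of tbx-2, with 28 regions in replicate 1 and 27 in replicate 2. All 7 IDR summits inside the gene lay in 1 intron, number 5 of 6, which spans 5138281 to 5146014. This intron of 7734 bp is 63.3% of the gene. The remaining 5 introns held none.

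The strongest summit of this intron, at 5142153, lay 5857 bp upstream of the tbx-2 start, with 278 in replicate 1 and 448 in replicate 2. At 5140676 the signals were 264 and 402, and at 5144390 they were 173 and 232. The summit at 5138734 had 127 and 179. These 4 were the highest of the 7 in replicate 2. The summits at 5139961 and 5143101 were lower, with 47.1 and 59.0 for the former and 44.2 and 60.9 for the latter. The last summit, at 5140877, shares its region with 5140676 and went the other way, with 134 in replicate 1 and 45.0 in replicate 2.

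The promoter of Y54H5A.2 held no IDR summit. The pooled list has a region there at 5149584 with a signal of 54.6, which ranked 6133. One IDR summit lay beyond it at 5153366, between the diverging genes rbm-42 and grwd-1, with 46.0 in replicate 1 and 78.1 in replicate 2. It lies in the promoters of both of these genes.

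Across the joint window of the 3 genes (5104701 to 5154578, 49.878 kb), 15 of the 19 IDR summits lay in introns and 4 between genes. None lay in a coding exon or an untranslated region. The shares of all IDR summits in these classes are not given here, so the counts describe this window only. Some weaker pooled regions of the window did lie in coding exons, as at 5131437 (signal 39.9), or in an untranslated region, at 5131177 (27.1). By position, 10 of the 19 IDR summits lay upstream of the tbx-2 start, 2 inside tbx-2 and 7 beyond its 3′ end. Their median pooled signal was 250, and that of all IDR summits was 145. Of the 19, 14 were among the strongest 2192 of the 4384 and 2 were among the strongest 100.

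**Figure D1:**
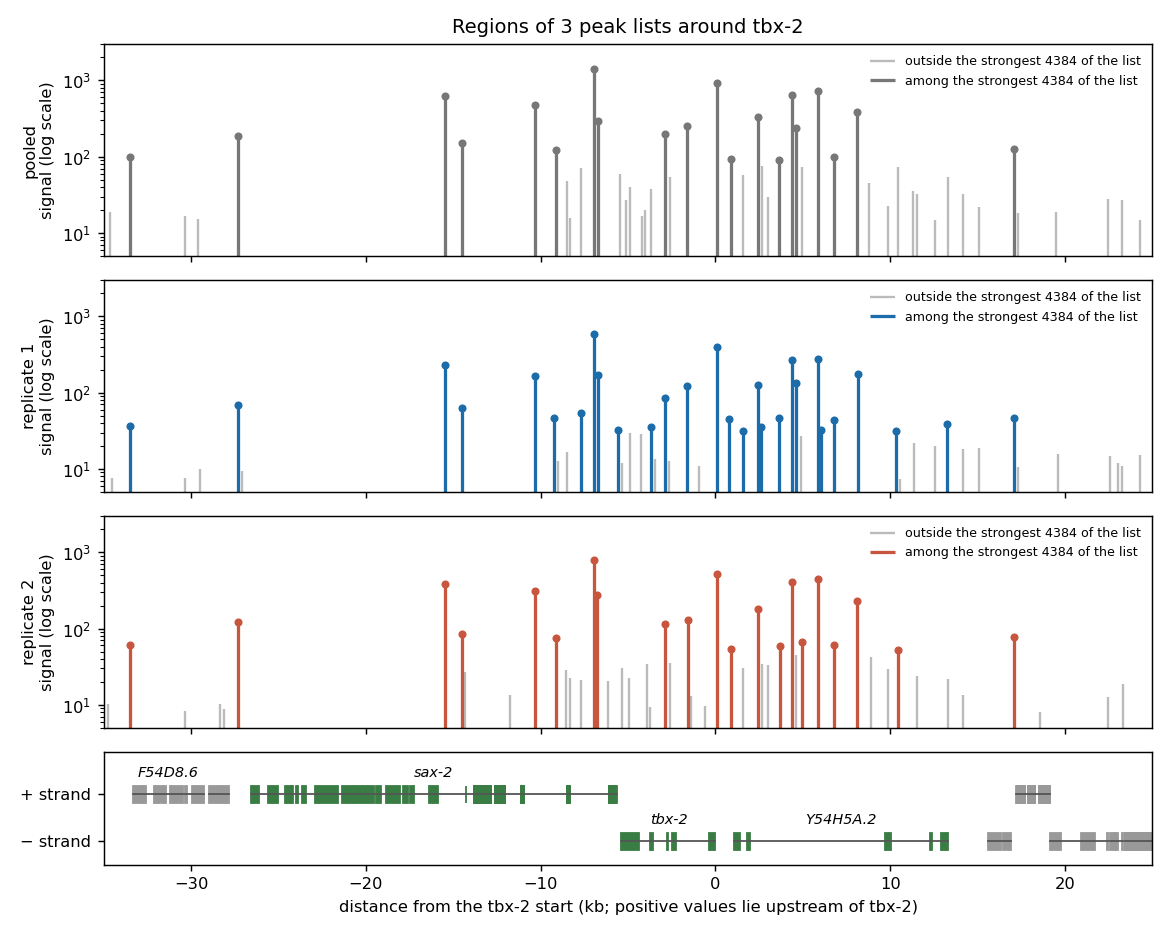
Signal of each listed region (vertical axis, log scale, scale of the authors' caller) against the distance of its summit from the tbx-2 start in kb, for the pooled list and both replicates, with gene models below (boxes are exons, members in green). Coloured lines are regions among the strongest 4384 of each list, and in each of the 3 lists they gather between the 3′ part of sax-2 and intron 5 of Y54H5A.2.

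The extent of the cluster was set by the spacing of its summits. When IDR summits at most 5 kb apart were joined, a distance set after the values were seen, the stretch that holds the tbx-2 start ran from 5120821 to 5144390. It was 23.569 kb long and held 17 IDR summits, and of 2976 such stretches in the genome it was the longest and held the most, where the next had 13. Neighbouring summits within it were 201 to 4148 bp apart, with a median of 1242.5 bp, against 11486.5 bp over all IDR summits. The rank depended on the distance. Joining IDR summits at most 2 kb apart gave 11 over 10.966 kb at the tbx-2 start, rank 1 by number and by length. With 1 kb there were 2 over 0.8 kb, rank 31 by number and 98 by length, and with 500 bp only 1.

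On the side of sax-2 the cluster was followed by an empty stretch. No region of the pooled list had its summit in the 11.834 kb between 5108987 and 5120821, which take in the 5′ part of sax-2. The empty stretch was 11.652 kb in replicate 1 and 11.864 kb in replicate 2. In the IDR list such a gap is ordinary, since 49.3% of the distances between neighbouring summits were at least as long. In the denser replicate lists it was longer than most, as 5.35% of the distances between neighbouring regions in replicate 1 and 5.50% in replicate 2 were at least as long. Coding sequence filled 55.1% of this stretch and 16.4% of the 23.569 kb cluster. Its GC content was 36.6%, that of the cluster 38.5% and that of the genome 35.4%. The part of coding density in the gap was not tested.

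In bins of 5 kb, IDR summits reached their highest count just upstream of the tbx-2 start. This bin held 6 IDR summits, and over a fixed grid of 20050 bins across the genome the highest count was also 6 and the mean 0.219. Replicate 1 had 9 regions in it and replicate 2 had 10, where the 99th percentile of the grid was 7 in both lists. The highest count of the grid was 9 in replicate 1 and 11 in replicate 2. The 2 bins on the other side, from the start to 10 kb, held 8 regions each in both replicates. Between 20 and 25 kb on that side neither replicate listed a region. On the side of Y54H5A.2, the bin from 10 to 15 kb held no IDR summit but 6 regions in replicate 1 and 4 in replicate 2.

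**Figure D2:**
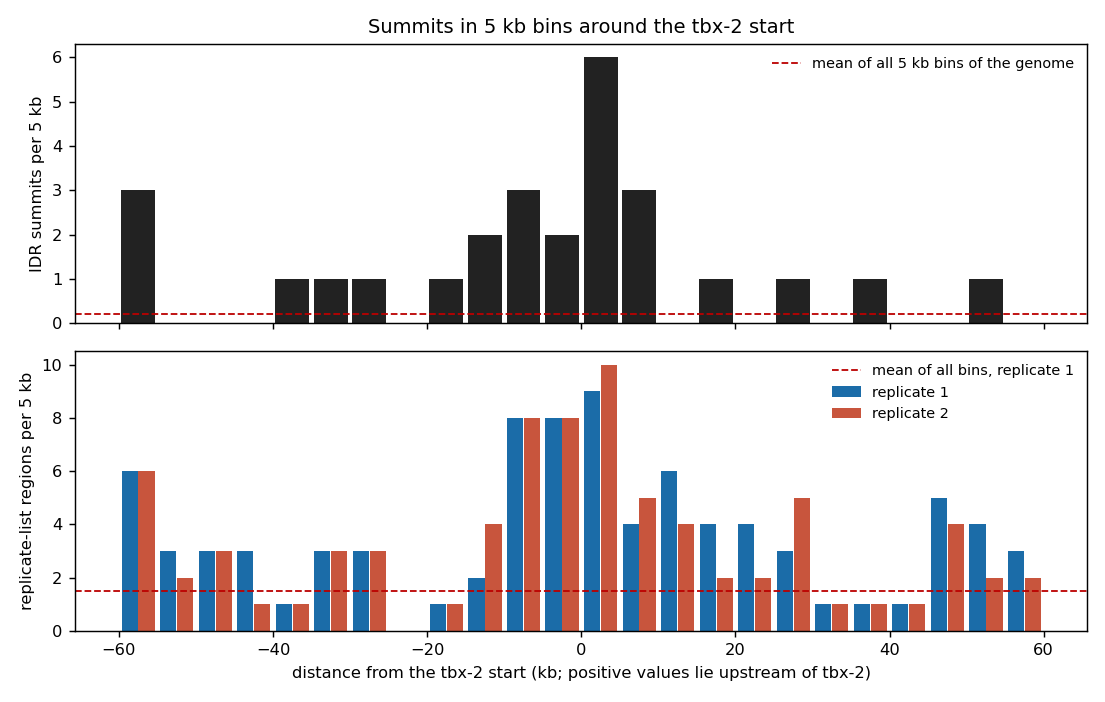
Number of IDR summits (top) and of regions in each replicate list (bottom) in 5 kb bins by distance from the tbx-2 start in kb; dashed lines are the mean over all 5 kb bins of the genome. The bin just upstream of the start is the highest shown in both panels, with 6 IDR summits and 9 and 10 regions in replicates 1 and 2.

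Joining regions of a replicate list at most 1 kb apart gave an unbroken run at the tbx-2 start in both replicates. In replicate 1 the run held 12 regions over 6.714 kb, from 5136374 to 5143088. In replicate 2 it held 15 regions over 8.404 kb, from 5134701 to 5143105. The mean length was 7.56 kb. Each ranked 4 in its list by number of regions, out of 19925 runs in replicate 1 and 18608 in replicate 2. The upstream edges nearly coincided, and on the other side the run of replicate 2 reached further, into intron 1 of tbx-2. Replicate 1 also listed regions in that intron, at 5135358 and 5134696. Its run ended at 5136374 because the distance to 5135358 was slightly over the 1 kb limit.

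The replicates placed the summits of the 3 genes close together. Of the 19, 18 were matched within 100 bp in both replicates, and their paired summits lay a median of 16.5 bp apart, against 17 bp for all IDR summits. Replicate 2 had the higher signal at 17 of these 18, and the median ratio of replicate 2 to replicate 1 was 1.39 (SD 1.11, n = 18 summits). Over all 4260 matched IDR summits the median ratio was 1.61 (SD 0.663), and 95.5% were stronger in replicate 2. The higher signal in replicate 2 was thus shared by the list as a whole. Summits are not replicates of a condition, so these spreads describe sites and not animals. In replicate 1, 17 of the 19 were among the strongest 4384 regions, and in replicate 2, 18 were. Most IDR summits shared this: 3828 of all 4384 in replicate 1 and 4023 in replicate 2.

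**Figure D3:**
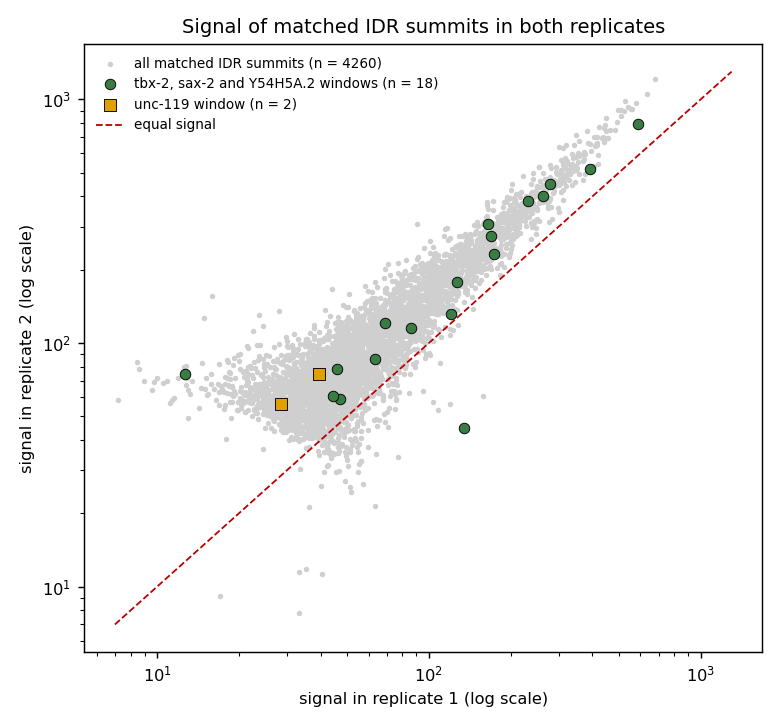
Signal in replicate 2 against signal in replicate 1, both on log axes in the units of the authors' caller, for 4260 IDR summits matched within 100 bp; green points are the 18 matched summits of tbx-2, sax-2 and Y54H5A.2, yellow squares those of unc-119, and the dashed line is equal signal. The green points follow the grey cloud, and the highest and lowest ratios among them were 5.91 and 0.335. Over all matched IDR summits the ratios ran from 0.234 to 9.91.

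The unc-119 gene (WBGene00006843) lies on the same chromosome at 10902641 to 10908935, plus strand, with 3 annotated transcripts. Its window held 2 IDR summits, 10 regions in replicate 1 and 8 in replicate 2. With 2 IDR summits it shared rank 852 with other genes, and its 0.123 per kb ranked 2452. Both summits lay in intron 1 of the longest transcript, which is 3747 bp long and 59.5% of the gene. The other 3 introns had no IDR summit. Having an IDR summit at all is what unc-119 shared with 40.5% of genes, and its counts were below those of the other 3 genes in every list.

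The stronger summit of unc-119, at 10905308, had a signal of 39.5 in replicate 1, rank 3334, and 74.4 in replicate 2, rank 2776. It lies 1148 bp upstream of the start of the next transcript, M142.1a. The weaker, at 10903380, had 28.7 in replicate 1, rank 4772, and 56.4 in replicate 2, rank 3771, and lies 739 bp downstream of the start of the long transcript. Both summits had a lower signal than the tbx-2 summit at 5136398 in the same replicate. Only the stronger summit was among the strongest 4384 regions of replicate 1, while both were in replicate 2. The ratios of replicate 2 to replicate 1 were 1.88 and 1.97.

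No IDR summit lay in a promoter of unc-119. In the pooled list the promoter of M142.1a had a region at 10906340 with a signal of 45.4, rank 7305, and another at 10906540 with 34.3, rank 9413. In that promoter replicate 1 had a region at 10906540 with a signal of 20.4. Replicate 2 listed regions there at 10905458 with 37.7, at 10906329 with 28.0 and at 10906533 with 11.3. The first of these lies 998 bp upstream of the M142.1a start, near the promoter limit. The pooled signals at 10906340 and 10906540 were below 76.8, the lowest pooled signal in the IDR list. The nearest IDR summit outside the window was 20438 bp away. The sequence under the stronger unc-119 summit, shown above, was 84.1% C or T over its 151 bases on the plus strand, and that under the weaker was 74.8%. The 6-base repeat GAGAGA was searched after these sequences had been seen. It lay within 50 bp of 1 of the 2 unc-119 summits and of 2 of the 19 summits of the other genes, against 28.2% of all IDR summits, counting both strands.

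**Figure D4:**
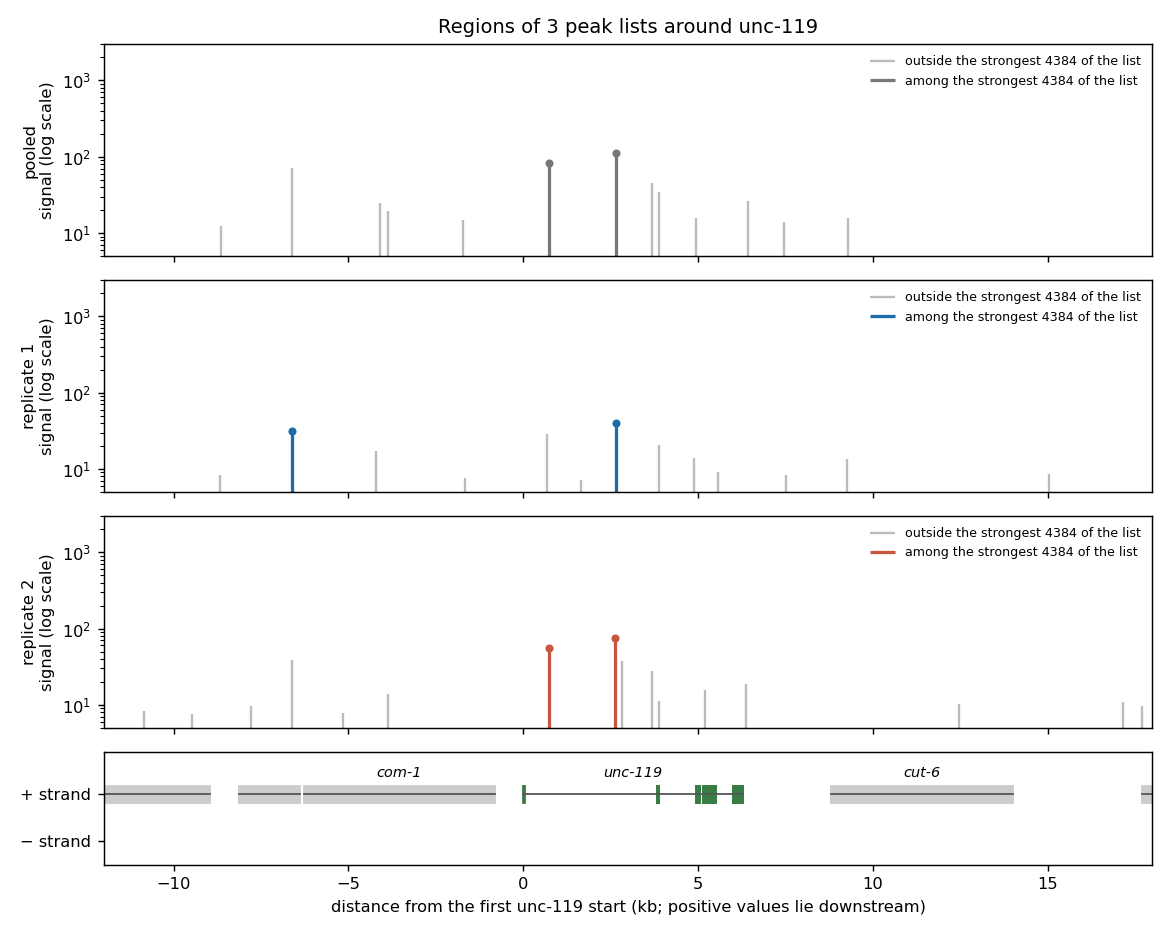
Signal of each listed region (vertical axis, log scale) against distance from the annotated start of the longest unc-119 transcript in kb, for the pooled list and both replicates, with unc-119 exons in green and neighbouring genes as grey spans. The tallest lines inside the gene are the 2 summits of intron 1, at 83.6 and 113 in the pooled list, with few regions among the strongest 4384 around them.

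T-box sites were found under few of these summits. The site GGTGTGA, read on both strands within 50 bp, lay at 1 of the 19 summits of tbx-2 and its neighbours (5.26%, exact 95% interval 0.133 to 26%). Over all IDR summits it lay at 42 of 4384 (0.958%). The shorter core GTGTGA, which is part of that site, lay at 3 of 19 (15.8%, 3.38 to 39.6%) and at 321 of all 4384 (7.32%). The intervals cover the counting of summits only. The share for the core depended on the distance allowed: it was 6 of 19 (31.6%) within 100 bp, against 13.1% of all IDR summits, and 1 of 19 (5.26%) within 25 bp, against 3.65%. The core of the single GGTGTGA began 32 bp from the summit at 5127186, one of the weaker summits in replicate 1 and in the pooled data. Neither the tbx-2 promoter summit nor the strongest summit in sax-2 had the core within 50 bp, and neither unc-119 summit had it.

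Genes most like tbx-2 were found by IDR summits per kb of window, leaving out genes whose windows overlap that of a gene already taken. They were mxl-3 (0.716 per kb, 8 summits), F45D3.4 (0.638, 7 summits), mdl-1 (0.606, 7 summits), F22B7.9 (0.529, 6 summits) and F46C5.10 (0.525, 6 summits). The genes mxl-3 and mdl-1 encode helix-loop-helix factors of the Max and Mad families. In replicate regions they had between 9 and 16 per window in either replicate, fewer than the 26 and 27 of tbx-2. Their windows were shorter, at 10.979 to 11.549 kb against 15.374 kb for tbx-2. Per kb of window they had 0.881 to 1.34 replicate regions, against 1.72 for tbx-2. The strongest region in the mdl-1 window had 269 in replicate 1 and 473 in replicate 2, and that of mxl-3 had 116 and 194. None reached the signal of the tbx-2 promoter summit in either replicate.

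**Figure D5:**
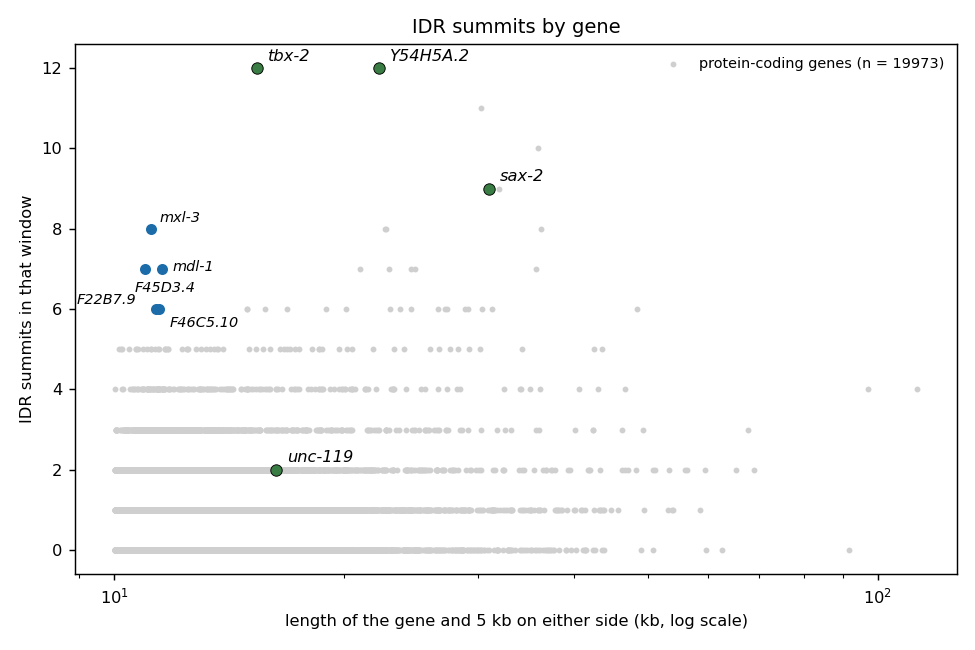
IDR summits in each gene and 5 kb on either side (vertical axis) against the length of that window in kb (log scale) for 19973 protein-coding genes; members are green and the genes most like tbx-2 by density are blue. Members tbx-2 and Y54H5A.2 stand at 12 summits, sax-2 at 9 and unc-119 at 2.

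Other neighbours of tbx-2 had no IDR summit of the cluster in their windows. Within 20 kb of the tbx-2 start, rbm-42, grwd-1 and oxy-4 each had 1 IDR summit in their windows, the one at 5153366. In the replicate lists their windows held 8 to 10 regions in replicate 1 and 5 or 6 in replicate 2. The median gene had 3 in each list. Among 22 T-box genes found from a list of 23 names, 4 had an IDR summit in the gene or within 5 kb, and 18 had none, against the 40.5% of all genes with at least 1. Besides tbx-2 these were tbx-36, mls-1 and tbx-33. The strongest near tbx-36 lay 4346 bp from the gene with 117 in replicate 1 and 298 in replicate 2. The mls-1 gene, which specifies uterine muscle, had 1 summit 3604 bp away, with 52.2 and 64.5. The tbx-33 gene had 1 at 4690 bp, with 56.2 and 85.9. Each of these 3 summits lay outside the gene it was counted for.

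The limits of the lists fell inside the cluster. The weakest IDR summit of the 3 genes, at 5139961, had a pooled signal of 89.7 and ranked 3746. Within their joint window, the strongest pooled region left out of the IDR list, at 5138934, had 76.0 and ranked 4436. In all, 26 pooled regions of the joint window were outside the IDR list. For tbx-2, the summit just inside the 5 kb limit was 4958 bp from the gene, with a pooled signal of 474, and that just outside was 5857 bp away, with 734. For sax-2 these were 4006 bp (250) and 5722 bp (925), the latter being the tbx-2 promoter summit. For Y54H5A.2 they were 3934 bp (200) and 7789 bp (294). Strong summits thus lay on both sides of the limit for each of these 3 genes.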

How the data were processed

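ChIP-seq peak lists of 2 biological replicates in 1 group were used. The authors deposited a list for each replicate, a pooled list and an IDR list, on ce10 and ce11. Only the ce11 lists were analysed, with the length of the ce10 IDR list as a reference. The deposited signal of a region is the value of the authors' caller, on a scale not stated. The deposited −log10 q-value was the same for all IDR regions and ranked nothing. The aligner, caller, IDR threshold and control strain are not given in the sources used here. No read counts were used, so depth is unknown. Tracks of signal and the control were not analysed here.

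The 4384 regions of the ce11 IDR list were exactly the top of the pooled list by signal, so likeness of replicates there is not independent of it. Summits are counted from 1. Gene models came from Ensembl 115 (WBcel235), on chromosomes equal in length to ce11. Summits were matched to the nearest replicate summit within 100 bp. Named genes are the 4 genes, genes within 20 kb of the tbx-2 start, the 5 densest others and bound T-box genes. Genes with at least as many IDR summits as sax-2 are named too. Genes, lists and rules were chosen with earlier results of these data known. Python 3.11.15, numpy 2.4.6, pandas 2.3.3 and scipy 1.17.1 were used, and counting and joining were tested on simulated data.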

Additional observations from a re-analysis of the deposited data

How the results depend on the processing

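Of 78 alternatives to 13 results, 63 stayed within the tolerance used (1.5 times for a count, 1 SD for a ratio or length, the 95% interval for a share), 15 moved and none reversed. Counting within the gene span alone gave 2 IDR summits and 9 replicate regions for tbx-2, 7 and 15.5 for Y54H5A.2, and 10.5 replicate regions for sax-2. A flank of 2 kb gave 6 and 15 for tbx-2, and one of 10 kb gave 15 IDR summits for sax-2. Among the stronger part of the IDR list (the strongest 2192), unc-119 had 0. Leaving out a replicate gave 1 to 2 for unc-119, with 1 when replicate 2 was left out. Joining regions at most 500 bp apart left a run of 0 kb and 1 region at the tbx-2 start, and 2 kb gave 22.2 kb and 33.5 regions (means of both replicates). With replicate 2 left out, the strongest 4384 regions of replicate 1 alone gave 18 for Y54H5A.2, 17 for tbx-2 and 12 for sax-2. The share of summits with GGTGTGA was 0% within 25 bp (0 of 19) and 10.5% within 100 bp (2 of 19). Over all IDR summits it was 0.479% and 1.71%. The share of the 19 with GTGTGA was 5.26% and 31.6%, inside its wide interval. No paired analysis was possible because there is 1 group. The depth of the libraries is unknown, and p-values over 2 samples were not computed.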
